A study of Mus musculus with 9 samples.

Results

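The 10 genes described here are expressed by microglia, the resident macrophages of the brain, and by other macrophages. They are Lyz2, Gpnmb, Spp1, Cd68, Tyrobp, C1qa, C1qb, C1qc, Cx3cr1 and Csf1r, and they are 10 of the 54232 genes listed in each count file. They were chosen by name with earlier results of the same 9 libraries in view, so their own values are given as a description, with no p-value. RNA was sequenced from cultures labelled as mouse cortical neurons, wild type, from CD1, an outbred stock. The PA + PS2 libraries (n = 3) carry the names IKVAV and PEDOT-S-OH, the PA libraries (n = 3) carry the name IKVAV, and the control libraries (n = 3) carry the name PDL, which the labels do not spell out. PA is a peptide amphiphile, a peptide with a fatty tail that assembles into fibres, IKVAV is a cell-binding sequence of laminin, and PEDOT polymers conduct electricity. The treatment label names the peptide amphiphile for the controls as well, against their titles, and the titles were used. The labels give no age, culture time or amount, and they do not say whether repeats were separate cultures or pooled animals, so errors measure the spread between these libraries, which may be technical.

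Microglia enter the brain early in development and depend on signals through the receptor CSF1R, whose ligands are CSF1 and IL34. In the healthy brain they carry CX3CR1, the receptor for the neuronal ligand CX3CL1, and they make C1q, the complement component that tags synapses and debris for removal. When microglia take up dying cells, myelin or amyloid in mice, they lower homeostatic genes such as Cx3cr1 and raise phagocytic genes such as Gpnmb, Spp1, Lyz2 and Cd68, in part through TREM2 and its signalling partner TYROBP. The comparisons address how the phagocytic and the homeostatic genes stood in each of the 3 cultures.

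Total counts ran from 20746851 to 27237398 per library, and 22064 to 24702 genes had at least 1 count. The 10 markers of neurons summed to 6891 to 7592 CPM (counts scaled to the size of the library) in PA + PS2 libraries, 6403 to 7565 CPM in PA libraries and 6549 to 7186 CPM in control libraries. Genes of neurons were thus expressed in all 9, and the purity of the cultures was not tested. The macrophage genes were scarce beside the neuron markers. Ptprc, the leukocyte marker CD45, had 11 to 25 counts per library, and Spi1, the gene of the myeloid factor PU.1, had 4 to 19 counts. Of the markers most specific to microglia in the brain, Siglech had 0 counts in all 9 libraries, P2ry12 had 0 to 4 counts and Tmem119 had 0 to 7 counts. The 10 genes are therefore called by their names and not by a cell state, since Gpnmb, Spp1 and Cd68 can also be expressed outside macrophages and the cells that gave the reads were not identified. In bulk RNA, fewer cells of a type and less RNA per cell cannot be told apart. Markers of other cells differed beside them: 12 genes of mesenchymal and meningeal cells summed to 12.7 to 58.9 CPM in PA + PS2, 91.7 to 163 CPM in PA and 138 to 199 CPM in control, and 8 proliferation genes summed to 101 to 126 CPM in PA + PS2, 169 to 240 CPM in PA and 128 to 282 CPM in control. The part of these cells in the differences given here was not tested.

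The promoters of the genes that the results turn on are shown so that the start sites of genes with high levels in PA + PS2 (Lyz2, Gpnmb), in control (Spp1) and low levels in PA + PS2 (C1qb, C1qc) can be read side by side. All 10 genes are protein-coding, and in GENCODE M21 on mm10 Lyz2 (ENSMUSG00000069516) spans chr10:117277331-117282321, Gpnmb (ENSMUSG00000029816) chr6:49036546-49070929, Spp1 (ENSMUSG00000029304) chr5:104435118-104441050 and Cx3cr1 (ENSMUSG00000052336) chr9:119901616-120069879. The C1q chains lie next to each other on chromosome 4, with C1qb (ENSMUSG00000036905) at chr4:136880129-136886187, C1qc (ENSMUSG00000036896) at chr4:136889804-136893065 and C1qa (ENSMUSG00000036887) at chr4:136895917-136898803. Each promoter runs from 250 bases before to 50 bases after the annotated start, 5′ to 3′ on the strand of the gene, in build GRCm38.p6 of RefSeq. Lyz2 lies at chr10:117282223-117282522 (minus strand), Gpnmb at chr6:49036268-49036567 (plus strand), Spp1 at chr5:104434861-104435160 (plus strand), C1qb at chr4:136886151-136886450 (minus strand) and C1qc at chr4:136892865-136893164 (minus strand). Capitals mark matches to the motifs searched on both strands.
Lyz2: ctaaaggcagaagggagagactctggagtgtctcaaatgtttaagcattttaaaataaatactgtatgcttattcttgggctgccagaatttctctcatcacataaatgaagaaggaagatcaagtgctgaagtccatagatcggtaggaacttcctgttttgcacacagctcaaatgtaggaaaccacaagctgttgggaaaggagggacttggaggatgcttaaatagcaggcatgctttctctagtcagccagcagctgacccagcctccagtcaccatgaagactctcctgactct
Gpnmb: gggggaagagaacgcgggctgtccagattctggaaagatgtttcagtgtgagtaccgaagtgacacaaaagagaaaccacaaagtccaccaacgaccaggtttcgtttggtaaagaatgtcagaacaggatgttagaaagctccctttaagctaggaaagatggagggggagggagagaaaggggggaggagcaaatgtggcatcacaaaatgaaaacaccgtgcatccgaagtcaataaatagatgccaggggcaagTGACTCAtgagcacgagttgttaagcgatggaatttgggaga
Spp1: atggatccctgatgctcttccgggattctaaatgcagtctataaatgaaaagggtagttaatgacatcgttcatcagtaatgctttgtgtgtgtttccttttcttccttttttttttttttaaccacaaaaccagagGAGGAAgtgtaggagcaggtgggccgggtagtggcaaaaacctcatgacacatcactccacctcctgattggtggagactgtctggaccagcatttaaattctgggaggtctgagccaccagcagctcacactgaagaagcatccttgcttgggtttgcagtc
C1qb: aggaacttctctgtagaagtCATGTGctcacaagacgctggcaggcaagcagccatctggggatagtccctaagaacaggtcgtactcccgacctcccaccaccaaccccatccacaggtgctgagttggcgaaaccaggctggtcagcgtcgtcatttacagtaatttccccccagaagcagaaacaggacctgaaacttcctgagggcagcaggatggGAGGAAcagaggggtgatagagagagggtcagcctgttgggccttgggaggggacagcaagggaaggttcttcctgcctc
C1qc: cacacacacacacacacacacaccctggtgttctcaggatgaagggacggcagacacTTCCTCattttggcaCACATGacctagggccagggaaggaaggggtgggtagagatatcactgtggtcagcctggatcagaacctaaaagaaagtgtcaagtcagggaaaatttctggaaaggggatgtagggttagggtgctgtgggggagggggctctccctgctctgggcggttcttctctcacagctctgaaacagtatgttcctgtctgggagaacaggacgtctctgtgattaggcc
The motifs were GAGGAA, a core bound by PU.1 and other ETS factors, the E-boxes CACGTG and CATGTG, to which MITF and TFE factors bind, and TGANTCA, the AP-1 site. No matches overlapped. Of 32851 promoters of the same length, 28.3% held GAGGAA, 7.15% CACGTG, 14.2% CATGTG and 7.81% TGANTCA. Promoters of 7 of the 10 genes were searched, and GAGGAA was found in 4 of them, namely C1qb, C1qc, Cd68 and Spp1. Another promoter of Spp1, at chr5:104435942-104436241, is not printed and held none of the letters searched. The AP-1 site was found in 2 of the 7: Gpnmb held TGACTCA 8 bases after its start, and Cd68, whose promoter is not printed, held TGAGTCA at 149 and 24 bases before its start. C1qb and C1qc each held CATGTG on one strand or the other, and Lyz2 and Cx3cr1 held none of the letters searched. Promoters of C1qa, Csf1r and Tyrobp were not used here. These matches describe letters and not binding.

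Among the phagocytic genes, Lyz2 and Gpnmb were highest in PA + PS2 libraries, Spp1 was highest in control libraries, and the 3 groups overlapped for Cd68. Lyz2, the lysozyme of macrophages and neutrophils, had 3.70, 4.63 and 5.20 CPM in PA + PS2 repeats 1, 2 and 3, against 0.900, 0.461 and 0.827 CPM in PA repeats and 1.52, 0.522 and 0.737 CPM in control repeats. Every PA + PS2 library lay above every PA and control library. The summed counts behind these levels were 322 in PA + PS2 (95% Poisson interval 288 to 359), 53 in PA (39.7 to 69.3) and 65 in control (50.2 to 82.8), where the intervals cover counting error only. Lyz2 was therefore 4.82-fold higher in PA + PS2 than in control, a log2 fold change of 2.27 ± 0.39 (SE), and 6.16-fold higher in PA + PS2 than in PA, a log2 fold change of 2.62 ± 0.39. For PA against control the log2 fold change was -0.35 ± 0.42, with overlapping groups, and it was -0.64 without control repeat 2 and 0.21 without control repeat 1, the control library with the highest level.

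Gpnmb, a membrane glycoprotein of late endosomes and lysosomes, had 7.07, 5.24 and 10.1 CPM in PA + PS2 repeats, against 1.84, 1.80 and 1.62 CPM in PA repeats and 3.53, 2.78 and 4.01 CPM in control repeats. The 3 groups did not overlap, with PA + PS2 highest, control next and PA lowest. Its log2 fold change was 1.12 ± 0.26 for PA + PS2 against control, 2.09 ± 0.27 for PA + PS2 against PA and -0.97 ± 0.27 for PA against control. Gpnmb is also made by melanocytes, whose pigment genes had few counts here. The 7 melanocyte markers, which include the transcription factor genes Mitf and Sox10, summed to 2.79 to 3.03 CPM in PA + PS2, 1.93 to 2.56 CPM in PA and 2.58 to 2.74 CPM in control, without overlap and in the same order of groups as Gpnmb. Mitf and Sox10 had the highest means of the 7, at 0.99 and 1.09 CPM over the 9 libraries. Sox10 is also in the list of oligodendrocyte lineage markers. The log2 fold changes in PA + PS2 were 0.17 ± 0.34 (Mitf) and -0.33 ± 0.36 (Sox10) against control. Against PA they were 0.45 ± 0.35 and 0.10 ± 0.37. Pmel, a pigment granule gene that did not pass the filter on low counts, had 5 to 7 counts per library in PA + PS2. It had 1 to 2 in PA and 0 to 4 in control, so PA + PS2 did not overlap the others. Of all genes tested, 5.38% were higher without overlap in PA + PS2 against control and 3.32% against PA. At these counts nothing is read from the Pmel difference. The other pigment genes overlapped between the groups, at 0 to 9 counts per library for Dct, 1 to 7 for Tyrp1, 0 to 4 for Tyr and 0 to 3 for Mlana. The part of melanocytes in the Gpnmb difference was not tested.

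Spp1, the gene of the secreted matrix protein osteopontin, had its highest values in control. It had 0.866, 0.848 and 1.87 CPM in PA + PS2 repeats, against 0.945, 0.461 and 0.752 CPM in PA repeats and 3.16, 2.48 and 1.66 CPM in control repeats. All PA libraries lay below all control libraries, and PA + PS2 repeat 3 lay above the lowest control. Spp1 had a log2 fold change of -1.02 ± 0.40 for PA + PS2 against control, 0.73 ± 0.43 for PA + PS2 against PA and -1.76 ± 0.42 for PA against control. Between PA + PS2 and PA the ranges overlapped, and the value was 0.26 without PA + PS2 repeat 3 and 0.97 without PA repeat 1.

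Cd68, a lysosomal membrane protein used as a stain for phagocytic cells, had 4.14, 3.78 and 3.24 CPM in PA + PS2 repeats, against 2.16, 3.77 and 2.63 CPM in PA repeats and 2.92, 3.96 and 2.72 CPM in control repeats. The groups overlapped in every comparison. The Cd68 log2 fold changes were 0.22 ± 0.26 for PA + PS2 against control, 0.38 ± 0.26 for PA + PS2 against PA and -0.16 ± 0.26 for PA against control. Leaving out 1 library gave 0.11 (without control repeat 3) to 0.41 (without control repeat 2) for PA + PS2 against control, 0.22 (without PA repeat 1) to 0.65 (without PA repeat 2) for PA + PS2 against PA, and -0.42 (without PA repeat 2) to 0.02 (without control repeat 2) for PA against control.

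**Figure D1:**
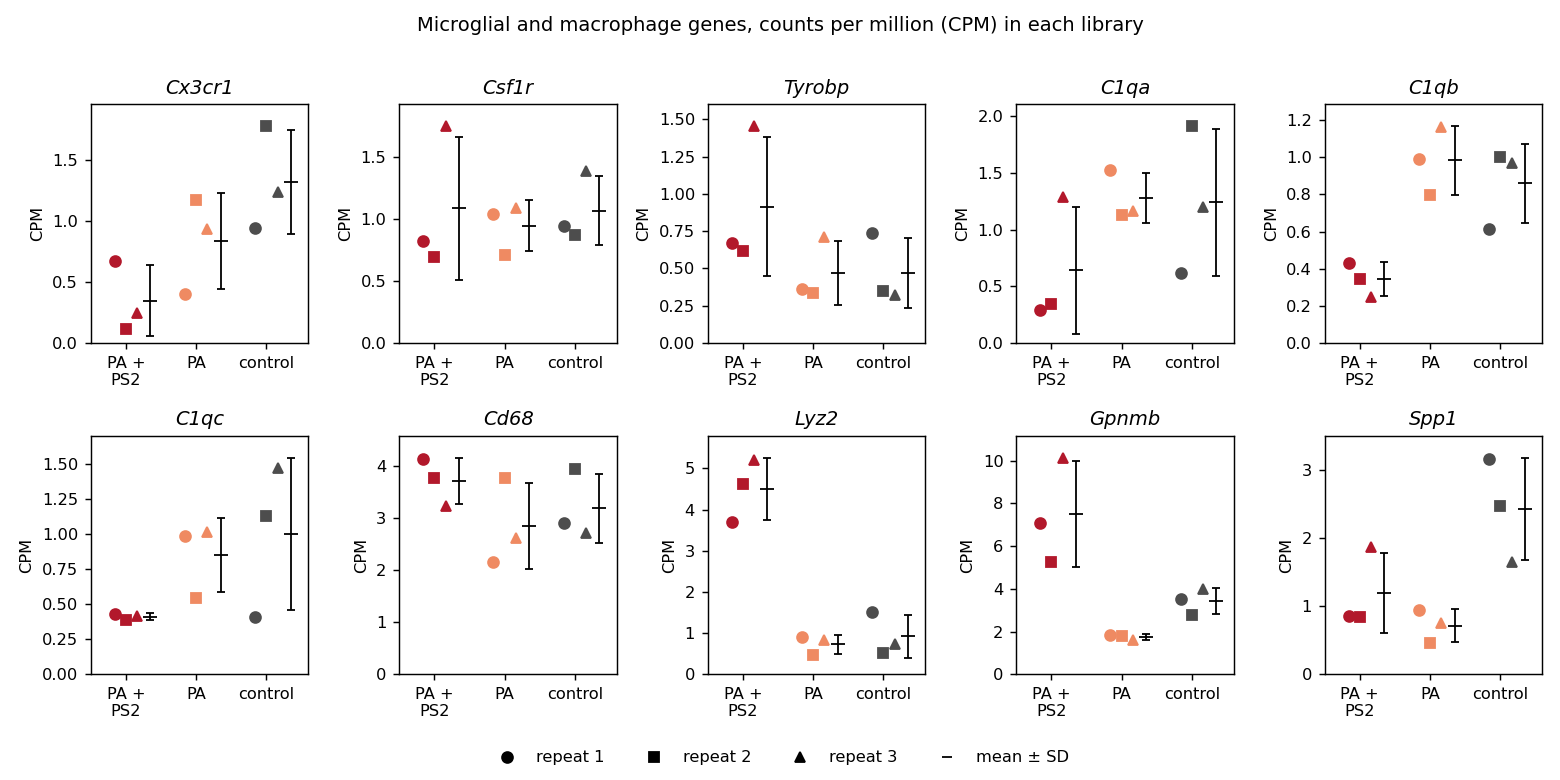
CPM of each of the 10 genes in each library, by group, with repeats 1, 2 and 3 as circles, squares and triangles and the mean ± SD (n = 3) at the right of each group. Lyz2 and Gpnmb are above both other groups in all 3 PA + PS2 libraries, and C1qb is below them.

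Of the homeostatic genes, Cx3cr1 had its lowest mean in PA + PS2, and the groups overlapped for Csf1r. Cx3cr1, the fractalkine receptor, had 0.673, 0.116 and 0.249 CPM in PA + PS2 repeats, against 0.405, 1.17 and 0.940 CPM in PA repeats and 0.945, 1.78 and 1.24 CPM in control repeats. All PA + PS2 libraries lay below all control libraries, while PA + PS2 repeat 1 lay above PA repeat 1. These levels rest on 3 to 41 counts per library. Its log2 fold change was -1.96 ± 0.60 for PA + PS2 against control, -1.32 ± 0.61 for PA + PS2 against PA and -0.65 ± 0.54 for PA against control. For PA + PS2, the value was -2.82 against control and -2.18 against PA without repeat 1, the highest of its group, and -1.53 against control and -0.88 against PA without repeat 2, the lowest. For PA against control, leaving out 1 library gave -0.96 (without PA repeat 2) to -0.33 (without PA repeat 1).

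Csf1r, the receptor on which microglia depend for survival, had 0.818, 0.694 and 1.75 CPM in PA + PS2 repeats, against 1.03, 0.712 and 1.09 CPM in PA repeats and 0.945, 0.869 and 1.38 CPM in control repeats. Its groups overlapped throughout. Csf1r had a log2 fold change of 0.03 ± 0.42 for PA + PS2 against control, 0.20 ± 0.42 for PA + PS2 against PA and -0.17 ± 0.42 for PA against control, and each changed sign in at least 1 alternative. Without PA + PS2 repeat 3 the values were -0.49 against control and -0.33 against PA, and without PA + PS2 repeat 2 they were 0.28 and 0.44. Of the exon bases of Csf1r, 15.1% are shared with Hmgxb3 on the opposite strand, which had 1072 to 1787 counts, and the strand setting of the counting is not given in the sources used here. Csf1r counts are uncertain for that reason.

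Tyrobp and the C1q chains are carried by microglia in most states and are called pan-microglial here. C1q is built from 3 chains, and all 3 had their lowest mean in PA + PS2. C1qb had 0.433, 0.347 and 0.249 CPM in PA + PS2 repeats, against 0.990, 0.796 and 1.16 CPM in PA repeats and 0.616, 1.00 and 0.967 CPM in control repeats. No PA + PS2 library reached the lowest library of either other group. Its summed counts were 24 in PA + PS2 (95% Poisson interval 15.4 to 35.7), 72 in PA (56.3 to 90.7) and 59 in control (44.9 to 76.1). C1qb had a log2 fold change of -1.32 ± 0.41 for PA + PS2 against control, -1.52 ± 0.41 for PA + PS2 against PA and 0.20 ± 0.38 for PA against control.

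C1qc had 0.433, 0.385 and 0.416 CPM in PA + PS2 repeats, against 0.990, 0.544 and 1.01 CPM in PA repeats and 0.411, 1.13 and 1.47 CPM in control repeats. PA + PS2 lay below all PA libraries, but control repeat 1 lay within the range of PA + PS2. This gave a log2 fold change of -1.27 ± 0.50 for PA + PS2 against control, -1.04 ± 0.50 for PA + PS2 against PA and -0.23 ± 0.47 for PA against control. C1qa had 0.289, 0.347 and 1.29 CPM in PA + PS2 repeats, against 1.53, 1.13 and 1.16 CPM in PA repeats and 0.616, 1.91 and 1.20 CPM in control repeats. PA + PS2 repeat 3 was at the level of the other groups and the other two PA + PS2 libraries were below it. C1qa had a log2 fold change of -0.94 ± 0.57 for PA + PS2 against control, -0.97 ± 0.57 for PA + PS2 against PA and 0.04 ± 0.54 for PA against control. Leaving out 1 library moved C1qa both ways. The value was -1.94 against control and -1.98 against PA without PA + PS2 repeat 3, -0.60 and -0.63 in the same comparisons without PA + PS2 repeat 1, and -0.47 against control without control repeat 2. For PA against control it was -0.29 without control repeat 1 and 0.49 without control repeat 2.

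Tyrobp, the adaptor that carries signals from TREM2 and related receptors, had its highest value in PA + PS2 repeat 3. It had 0.673, 0.617 and 1.46 CPM in PA + PS2 repeats, against 0.360, 0.335 and 0.714 CPM in PA repeats and 0.739, 0.348 and 0.322 CPM in control repeats. The groups overlapped. Tyrobp had a log2 fold change of 0.95 ± 0.52 for PA + PS2 against control, 0.94 ± 0.52 for PA + PS2 against PA and 0.00 ± 0.54 for PA against control. Without PA + PS2 repeat 3 the value was 0.44 against either group, and it was 1.44 against control without control repeat 1. For PA against control it was -0.44 without PA repeat 3 and 0.49 without control repeat 1.

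**Figure D2:**
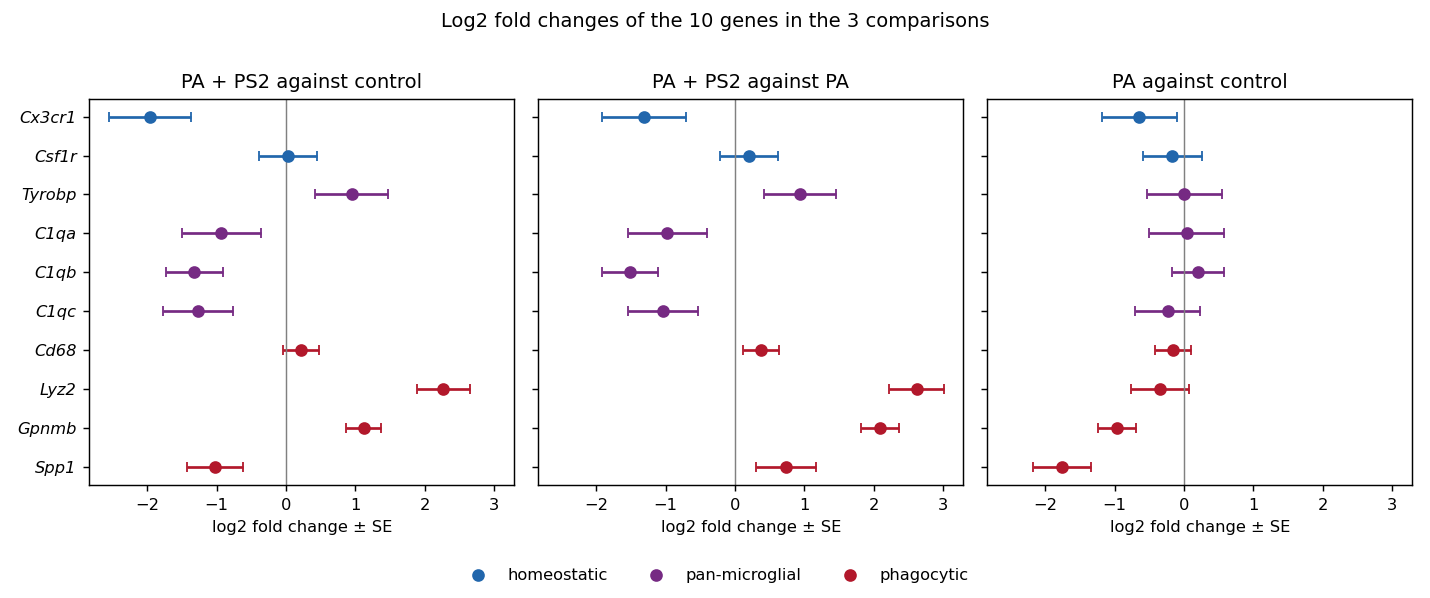
Log2 fold change ± SE of each gene in the comparisons PA + PS2 against control, PA + PS2 against PA and PA against control, with positive values for higher levels in the group named first. Lyz2 and Gpnmb stand to the right, and Cx3cr1, C1qb and C1qc to the left, in both comparisons of PA + PS2, and Spp1 and Gpnmb stand to the left in PA against control.

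All 10 genes passed the filter on low counts that left 15712 genes. For PA + PS2 against control, 2 of the 10 did not overlap and were higher (Lyz2, Gpnmb), and 2 did not overlap and were lower (Cx3cr1, C1qb), where 5.38% and 6.54% of all genes tested did so. For PA + PS2 against PA, 2 were higher (Lyz2, Gpnmb) and 2 lower (C1qb, C1qc), where 3.32% and 6.32% of all genes did so. For PA against control, 0 were higher and 2 lower (Gpnmb, Spp1), where 1.97% and 2.07% of all genes did so. Since the genes were chosen with these values known, nothing is read from the counts. The median log2 fold change of the 10 was -0.45, 0.29 and -0.20 in the 3 comparisons, against 0.00, 0.01 and -0.01 over all genes, for PA + PS2 against control, PA + PS2 against PA and PA against control.

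None of the 10 passed an adjusted p of 0.05 in the edgeR quasi-likelihood test (Benjamini-Hochberg over all genes), and other fits passed Lyz2 and Gpnmb. The 10 were chosen with these comparisons known. Which of them passed, here and below, is therefore a description and not a test of them. In PA + PS2 against control the edgeR test passed 7 genes, all lower, which is 0.0446% of those tested, and 884 (5.63%) had an unadjusted p under 0.05. With the repeat number as a block 184 genes (1.17%) passed, of which 18 (0.115% of those tested) were higher, Gpnmb and Lyz2 among them. DESeq2 passed 208 (1.19%), of which 16 (0.0914%) were higher, again with both. Without the filter on low counts edgeR passed 365 of 31611 genes (1.15%), with Gpnmb and Lyz2 higher and Cx3cr1 lower.

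In PA + PS2 against PA the edgeR test passed 0 genes (0.0%), with 881 (5.61%) at an unadjusted p under 0.05. DESeq2 passed 121 (0.691%), of which 6 (0.0343%) were higher, Gpnmb and Lyz2 among them, and edgeR without the filter passed 330 (1.04%), also with both. In PA against control the edgeR test passed 0 (0.0%), with or without the repeat block, with 192 (1.22%) at an unadjusted p under 0.05, and DESeq2 passed 0. Without the filter it passed 23 (0.0728%), Spp1 among them.

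These counts moved when 1 library was left out, which also leaves fewer libraries in its group. The part of each in the change was not tested. For PA + PS2 against control, 175 genes passed without control repeat 1 and 18 without PA repeat 1, against 2 without PA + PS2 repeat 2, 1 without PA + PS2 repeat 3 and 0 without PA + PS2 repeat 1, control repeat 2 or control repeat 3. Lyz2 passed without control repeat 1. For PA + PS2 against PA, 37 passed without control repeat 1, with Gpnmb and Lyz2, and 2 passed without PA + PS2 repeat 2, with Gpnmb. Without all 3 libraries of repeat 1, a choice made after seeing the data, 125 passed in PA + PS2 against control, with Lyz2, and 3 in PA + PS2 against PA, with none of the 10.

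Between genes, levels were compared per length, as CPM per kilobase of exon (RPKM). In PA + PS2 the highest mean was that of Lyz2, 3.43 ± 0.57 RPKM (SD, n = 3), followed by Cd68 at 2.96 ± 0.36, and these 2 lay within their spread of each other. In PA the highest was Cd68 at 2.27 ± 0.66 RPKM and Lyz2 was the fifth, at 0.554 ± 0.179 RPKM. In control the highest was Cd68 at 2.54 ± 0.53 RPKM, followed by Spp1 at 1.48 ± 0.46. Cx3cr1 and Csf1r were the lowest pair in every group, at 0.0768 and 0.188 RPKM in PA + PS2, 0.186 and 0.164 RPKM in PA, and 0.294 and 0.184 RPKM in control.

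The share of each gene in the summed RPKM of the 10 shows the same levels without the total. Lyz2 made up 28.4%, 36.0% and 29.4% of the sum in PA + PS2 repeats, against 9.82%, 5.08% and 8.26% in PA repeats and 13.1%, 4.01% and 6.87% in control repeats. The 4 phagocytic genes together took 68.6% to 80.3% in PA + PS2, 45.0% to 56.7% in PA and 53.3% to 67.5% in control. The 3 C1q chains took 8.73% to 12.5% in PA + PS2, 30.5% to 41.6% in PA and 15.6% to 34.4% in control. A share moves when any other gene of the sum moves, so these are not independent values.

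**Figure D3:**
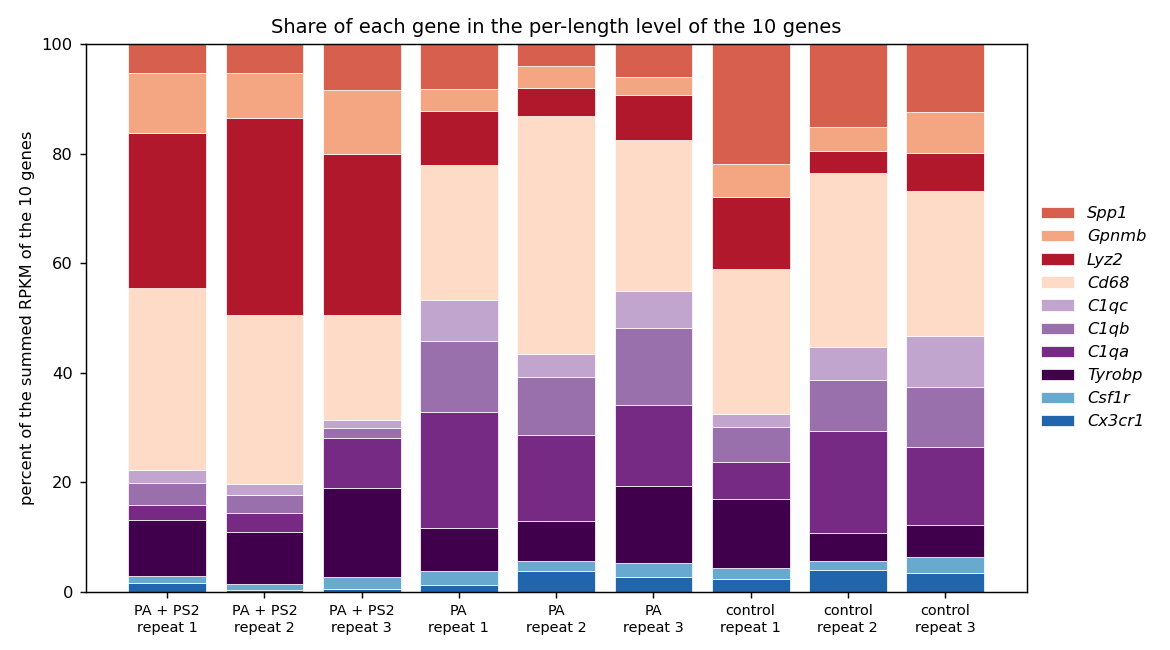
Stacked bars of the percent of the summed RPKM of the 10 genes that each gene contributes, 1 bar for each library. Lyz2 takes 28.4% to 36.0% of the PA + PS2 bars, and the C1q chains take 8.73% to 12.5% of them.

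The balance of the phagocytic genes (mean log2(CPM + 0.5) of Cd68, Lyz2, Gpnmb and Spp1) over the homeostatic genes (the same mean of Cx3cr1 and Csf1r) was 1.60, 2.07 and 1.89 in PA + PS2 repeats, against 0.68, 0.29 and 0.27 in PA repeats and 1.14, 0.55 and 0.46 in control repeats. Every PA + PS2 library lay above every other library, and PA and control overlapped. The means were 1.86 ± 0.24 in PA + PS2, 0.41 ± 0.23 in PA and 0.72 ± 0.37 in control (SD, n = 3 each), so PA + PS2 exceeded control by 1.14 and PA by 1.45, and PA minus control was -0.31. The difference from control rested in part on Lyz2: it was 0.71 without that gene and 1.60 without Spp1. The homeostatic mean was -0.22 to 0.38 in PA + PS2, 0.24 to 0.60 in PA and 0.53 to 0.86 in control. PA + PS2 and PA thus overlapped in it. The phagocytic mean was 1.85 to 2.27 in PA + PS2, 0.80 to 0.91 in PA and 1.32 to 1.67 in control, without overlap.

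**Figure D4:**
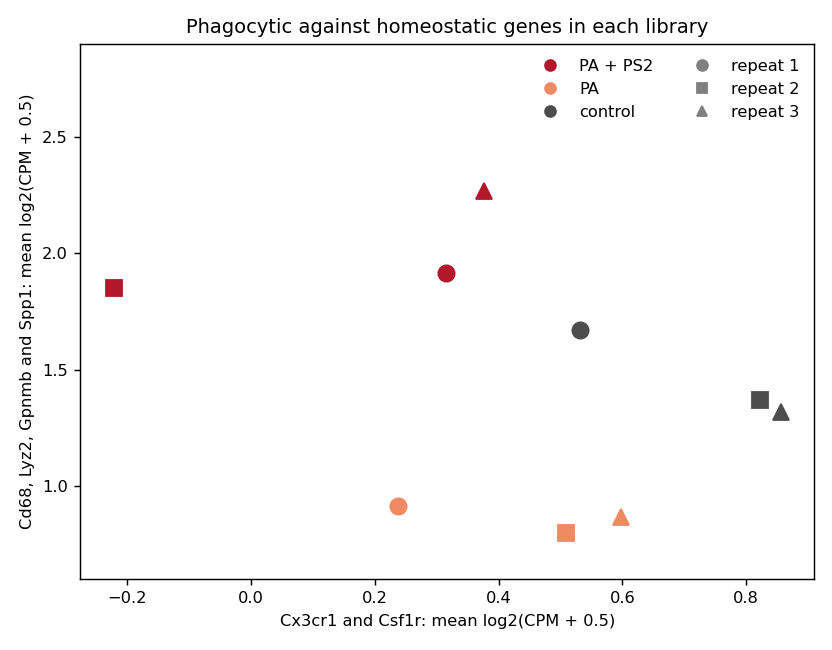
Mean log2(CPM + 0.5) of Cd68, Lyz2, Gpnmb and Spp1 (y axis) against that of Cx3cr1 and Csf1r (x axis), 1 point per library, coloured by group and shaped by repeat. The balance is the y value minus the x value, and it was 1.60 to 2.07 in PA + PS2, 0.27 to 0.68 in PA and 0.46 to 1.14 in control.

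Across the 9 libraries, which include the group differences and share their depth scaling, Lyz2 and Gpnmb had a Pearson correlation of 0.86 in log2(CPM + 0.5), and C1qb and C1qc one of 0.84. C1qb and Lyz2 had -0.93 and Cx3cr1 and Lyz2 -0.81. Tyrobp ran with Lyz2 (0.76) and against C1qb (-0.71). Other pairs within the sets of the balance were weaker. The homeostatic pair Cx3cr1 and Csf1r had -0.12. Among the phagocytic genes, Cd68 had 0.31 with Lyz2, 0.42 with Gpnmb and -0.07 with Spp1. Spp1 had 0.03 with Lyz2 and 0.31 with Gpnmb. The genes most like each member were sought among 12258 protein-coding genes with a mean of at least 1 CPM. For Lyz2 they were Slc1a4 (0.97), Slc7a1 (0.96), Nars (0.94), Slc7a5 (0.94) and Hs3st4 (0.93), of which Slc1a4, Slc7a1 and Slc7a5 are amino acid transporters and Nars loads asparagine onto its tRNA. For Gpnmb they were Mpzl3 (0.94), Fcor (0.93), Psph (0.91), which makes serine, and the mitochondrial ribosome genes Mrpl42 and Mrpl30 (0.90 each). For Cx3cr1 they were Cavin2 (0.95), Grem1 (0.93), Anxa1 (0.93), Rad51ap1 (0.93) and Spdl1 (0.92). For C1qb they were Fam210b (0.95), Pbxip1 (0.94), Axl (0.94), Ticrr (0.94) and Tcf7l1 (0.93). For Spp1 the highest was Gxylt2 (0.92) and for Csf1r it was Mgat2 (0.94). They were picked as the highest of 12258 values and are a description.

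Of the ligands of the receptors, Csf1 had its lowest values in PA + PS2. Csf1, which signals through CSF1R, had 3.70, 4.32 and 2.70 CPM in PA + PS2 repeats, against 10.3, 10.1 and 6.43 CPM in PA repeats and 8.96, 11.8 and 20.5 CPM in control repeats. No PA + PS2 library overlapped the others. The log2 fold change against control was -1.94 ± 0.32, which missed the threshold in edgeR at an adjusted p of 0.0537 and passed at 0.0189 once the repeat was a block. Against PA it was -1.32 ± 0.31 with an edgeR adjusted p of 0.290, and DESeq2 passed Csf1 as lower in both comparisons. Il34, the other ligand of CSF1R, had 0.225 to 0.963 CPM over the 9 libraries and Cx3cl1, the neuronal ligand of CX3CR1, had 30.4 to 41.5 CPM. The log2 fold change of Cx3cl1 was 0.04 ± 0.13 for PA + PS2 against control, with an edgeR adjusted p of 1.00, and that of Il34 was -0.36 ± 0.58.

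The receptors and bridges of engulfment are shared with astrocytes and other cells. Of the 12 genes, 9 were below 0 in PA + PS2 against control (median -0.50) and 10 in PA + PS2 against PA (median -0.38). By edgeR 0 passed in either, with 5 at an unadjusted p under 0.05 in each, and DESeq2 passed Axl and Dock1 in both. Axl, a receptor for bridged phosphatidylserine, had 2.74, 2.43 and 1.75 CPM in PA + PS2 repeats, against 5.40, 6.58 and 5.49 CPM in PA repeats and 3.86, 6.70 and 5.39 CPM in control repeats. Its log2 fold change was -1.20 ± 0.25 against control (edgeR adjusted p 0.110, or 0.0371 in the blocked fit) and -1.34 ± 0.25 against PA (adjusted p 0.237). Mfge8, the bridge to the integrin receptor, had 14.3, 17.3 and 19.8 CPM in PA + PS2 repeats, against 50.4, 60.2 and 42.8 CPM in PA repeats and 15.4, 55.3 and 47.6 CPM in control repeats, and control repeat 1 lay within PA + PS2. Its log2 fold change was -1.57 ± 0.35 against PA (adjusted p 0.247). In the blocked edgeR fit Axl (adjusted p 0.0389), Dock1 (0.0391) and Mfge8 (0.0391) passed as lower against PA. Dock1, which drives the engulfing cytoskeleton, had a log2 fold change of -1.10 ± 0.24 in PA + PS2 against control (edgeR adjusted p 0.113, or 0.0311 in the blocked fit).

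Of 9 receptor genes of osteopontin, 8 had a log2 fold change below 0 in PA + PS2 against control, with a median of -0.91, and by edgeR 0 passed, with 5 at an unadjusted p under 0.05. Under the repeat block, and by DESeq2, 3 were lower and passed. These were Itgb5 (-1.42 ± 0.28, edgeR adjusted p 0.0970, blocked 0.0103), Itga5 (-1.60 ± 0.34, adjusted p 0.112, blocked 0.0148) and Itgav (-0.91 ± 0.24, adjusted p 0.205, blocked 0.0479). These are integrin chains found on many cell types. Lgals3, the gene of galectin 3, is on a list of 19 other disease-associated genes of microglia, as is Axl, which was lower. In PA + PS2 against control, 9 of the 14 tested were above 0 and 5 below, with a median of 0.07. Lgals3 had 3.66, 2.35 and 2.74 CPM in PA + PS2 repeats, against 2.38, 0.293 and 1.13 CPM in PA repeats and 0.575, 1.00 and 0.875 CPM in control repeats. PA + PS2 and control did not overlap for Lgals3. Its log2 fold change against control was 1.83 ± 0.55, with an edgeR adjusted p of 0.318.

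**Figure D5:**
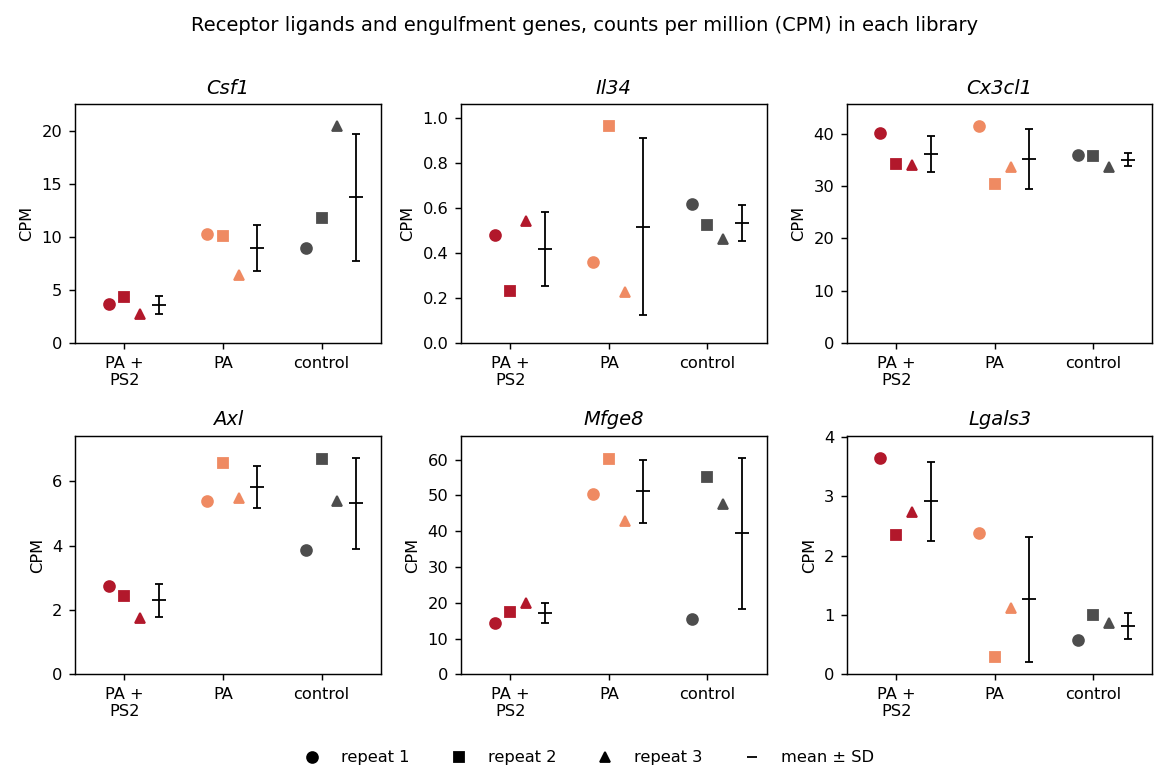
CPM of Csf1, Il34, Cx3cl1, Axl, Mfge8 and Lgals3 in each library, by group, with repeats 1, 2 and 3 as circles, squares and triangles and the mean ± SD (n = 3) at the right of each group. Csf1 and Axl are lowest in the 3 PA + PS2 libraries, and Cx3cl1 is between 30.4 and 41.5 in all 9.

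The wider lists of microglial and macrophage genes are given for PA + PS2 against control. Of 15 other homeostatic genes, 8 were tested and 6 were below 0, and their median was -0.38 on the log2 scale, with 3 at an unadjusted p under 0.05. Fcrls, a gene of the Fc receptor family expressed by mouse microglia, had a log2 fold change of -2.41 ± 0.80 (edgeR adjusted p 0.431). Sall1, a transcription factor also expressed outside microglia, had a log2 fold change of -0.40 ± 0.14. Of 19 other disease-associated genes, 14 were tested and 9 were above 0, with a median of 0.07 and 2 at an unadjusted p under 0.05. Trem2, the receptor that signals through TYROBP, had 1 to 17 counts per library. Of 24 other pan-macrophage genes, 17 were tested and 9 were above 0, with a median of 0.05. Among them Ptprc was 0.05 ± 0.42 and Aif1, the microglial stain IBA1, was -0.31 ± 0.65. By edgeR 0 genes of these 3 lists passed, and DESeq2 and the repeat block passed Axl, as lower.

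Of the genes that work with the 10, none of the next 4 lists had a gene that passed in PA + PS2 against control by edgeR, by DESeq2 or under the repeat block, and 0 had an unadjusted p under 0.05. Of 14 other complement genes, 8 were tested and 6 were below 0 (median -0.29). C1ra and C1s1, the proteases that join C1q, had 0 to 8 and 0 to 4 counts per library. Of 8 genes of TYROBP signalling, 5 were tested and 3 were above 0 (median 0.23). Of 25 lysosomal genes, 18 were above 0 (median 0.03). Of the MITF and TFE factors, which drive lysosomal genes and Gpnmb, 3 of 4 were tested and 2 were below 0 (median -0.01).

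Lyz2 is also a gene of neutrophils and monocytes, and their markers were at or near 0. Of 12 such markers, Ccr2, Ly6c2, S100a8, S100a9, Elane, Retnlg and Ly6g were at 0 in all 9 libraries, and the list summed to 0.0385 to 0.240 CPM in PA + PS2, 0.0376 to 0.225 CPM in PA and 0 to 0.138 CPM in control. Of 10 lymphocyte markers, none passed the filter on low counts, and they summed to 0.125 to 0.385 CPM in PA + PS2, 0.0752 to 0.293 CPM in PA and 0.123 to 0.276 CPM in control. Of 11 markers of border macrophages, 1 was tested, they summed to 2.20 to 3.12 CPM in PA + PS2, 2.03 to 3.10 CPM in PA and 2.46 to 3.18 CPM in control, and Mrc1 had 1 to 13 counts per library. Lyz1, the neighbouring copy of Lyz2, had 0 to 1 counts per library, though 15.4% of the 50-base stretches of Lyz2 are also in Lyz1. Spp1 shares 11.6% of its 50-base stretches with Gm42793, which had 0 to 1 counts. Of the exon bases of Spp1, 18.8% are shared with Gm42793 on the same strand, so Spp1 counts are uncertain too.

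Of the other cell types, the neuron markers had a median of 0.05 over 10 tested genes in PA + PS2 against control. None of them passed by edgeR, by DESeq2 or under the repeat block. The 10 mesenchymal and meningeal markers tested were all below 0 (median -1.68), as were the 8 proliferation genes (median -1.17). By edgeR 0 of either list passed, with 8 and 7 at an unadjusted p under 0.05, while 4 and 5 passed under the repeat block and 4 and 2 by DESeq2. Of 10 oligodendrocyte lineage markers, 6 were below 0 (median -0.17), and the repeat block passed Pdgfra, Olig1 and Olig2 as lower and Mag as higher. Of 8 astrocyte markers tested, 6 were below 0 (median -0.16), of 3 endothelial markers tested 2 were (median -1.25), and of 2 melanocyte markers tested 1 was (median -0.08). These lists passed 0 genes by edgeR, and DESeq2 passed 5, 1, 1 and 0 of the oligodendrocyte, astrocyte, endothelial and melanocyte lists.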

How the data were processed

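RNA from 9 libraries, 3 in each of 3 groups, was measured by sequencing. The authors deposited 1 file of read counts for each library, whole numbers by Ensembl gene with no normalization. Per the submitters' processing notes, the tools were STAR 2.7.5, HTSeq 2.0.2, cutadapt 4.2 and DESeq2 1.14.1 with build mm10, and their roles, the annotation release and the strand setting are not given in the sources used here. The molecule label names polyA RNA and the kit is one for total RNA. Symbols came from GENCODE M21, which matched 54079 of 54232 identifiers.

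CPM and RPKM were computed from these counts with library sizes scaled by TMM. Comparisons used edgeR 4.0.16 (R 4.3.3), with its quasi-likelihood test on all 9 libraries, 2-sided, with filterByExpr (minimum count 10, minimum total 15; 15712 genes, 99.9% of counts), 6 residual degrees of freedom and Benjamini-Hochberg adjustment at 0.05. Errors of log2 fold changes are standard errors. The depth of 20746851 to 27237398 counts leaves 3 to 244 counts per library for the 10 genes, which limits their precision. DESeq2 1.42.0, other scalings, no filter, the repeat as a block, the 2 groups alone and leaving out libraries were alternatives. The test was checked on simulated counts, with the same spread for all genes and no effect of the repeat. Changes were set only in genes with more counts than most of the 10 had, so the check does not cover those.

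Repeat numbers may pair the libraries. Deviations from group means correlated within a number by 0.24, 0.26 and 0.207 for PA + PS2 and control, 0.498, 0.407 and 0.371 for PA and control, and 0.048, 0.304 and 0.376 for PA + PS2 and PA. Since all were over 0.1 in the comparisons with control, the block is printed there where it changes a call. For PA + PS2 against PA the block is printed only for the members and the engulfment genes. This pairing comes from the data, since no label explains the numbers.

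The members, the 23 gene lists (231 symbols, 156 tested) and the tests were chosen with earlier results of these data known. Named genes were the members, a set list of partners, up to 4 genes of each other list with the smallest p, and the 5 genes most like each of 6 members.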

Additional observations from a re-analysis of the deposited data

How the results depend on the processing

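For PA + PS2 against control, the count of genes passing was 7. It was 17 with RLE size factors, 2 with library size only, 365 without the filter on low counts, 208 with DESeq2, 184 with the repeat block, 28 in the 6 libraries of the groups compared, and 125 without the 3 libraries of repeat 1, an alternative chosen after seeing the data. Leaving out 1 library gave 0 to 175. For PA + PS2 against PA it was 0, and 330 without the filter, 121 with DESeq2, 57 (0.363%) with the repeat block, Gpnmb and Lyz2 among them, 3 without repeat 1, and 0 to 37 leaving out 1 library. For PA against control it was 0, and 23 without the filter. The members passing were 0 in each comparison. Against control they were 3 in PA + PS2 without the filter (Gpnmb, Lyz2, Cx3cr1), 2 with DESeq2 or the repeat block, 1 in the 6 libraries alone or without repeat 1, and 0 to 1 leaving out 1 library. Against PA they were 2 in PA + PS2 without the filter, with DESeq2 or with the repeat block, and 0 to 2 leaving out 1 library. In PA against control 1 passed without the filter (Spp1).

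The balance of PA + PS2 over control was 1.58 and 0.65 with a pseudocount of 0.1 and 2 CPM, 1.60 without Spp1, 0.71 without Lyz2 and 1.59 as a ratio of summed RPKM. Over PA it was 1.91, 0.87, 1.68, 1.15 and 1.70 in the same settings. Of the 30 log2 fold changes of members, 21 kept their sign in all alternatives and 9 changed it: those of Csf1r in all 3 comparisons and those of Tyrobp, C1qa, C1qb, C1qc, Cd68 and Lyz2 in PA against control. Of the other named genes, the log2 fold change of Cx3cl1, PA + PS2 against control, was 0.04, and -0.0185 without repeat 1 and -0.0276 to 0.0872 leaving out 1 library. That of Tfe3, PA + PS2 against PA, was -0.07, and 0.0359 without repeat 1 and -0.14 to 0.0361 leaving out 1 library, and that of Trem2, PA + PS2 against PA, was 0.78, and -0.73 and -0.27 to 1.63 in the same settings. That of Stab1, PA against control, was -0.11, and -0.29 to 0.0920 leaving out 1 library. The cause was not tested. Low counts limit all 10 genes: at the lowest, Cx3cr1 rested on 3 counts in PA + PS2 repeat 2.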
